A study of Mus musculus with 42 samples.

Results

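Aminoacyl-tRNA synthetases, the enzymes that load each amino acid onto its tRNA, were examined in the liver, the white fat (white adipose tissue, WAT) and the brown fat (BAT) of mice given an amino acid mixture. The members were chosen by name: 36 genes of the family were looked for among the probe sets of the array, and a probe set was taken only where its annotation named one member and no other gene. Of the 36 genes, 35 were measured, by 72 of the 45037 probe sets tested, and these 35 stand among 18193 genes named in the same way. They are 19 cytosolic genes with 40 probe sets and 16 mitochondrial genes with 32 probe sets. Dars, the cytosolic aspartyl-tRNA synthetase, was not measured here, and Mars was listed as Mars1. Gars and Kars, which encode both the cytosolic and the mitochondrial enzyme, were counted with the cytosolic genes. No probe set was removed for a low value, so all 72 entered every comparison.

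The mice were males of the ddY strain, 5 weeks old on arrival, and were acclimated for 1 week. Water or a 1.8% solution of VAAM, a mixture that simulates the amino acids in the saliva of Vespa larvae, was given through a feeding tube at 37.5 µL per gram of body weight, 5 times at 1 dose a day, and tissues were taken 4 h after the last dose. Food was withdrawn on the day of the last dose in both groups, and no allele or transgene was carried by either. There were 7 water mice and 7 VAAM mice, and by the study's methods liver, WAT and BAT were taken from each, giving 6 groups of 7 arrays and 42 arrays in all. The labels do not say which arrays of different tissues came from the same mouse, so a mouse number below names an array within its tissue only.

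A cell reads its amino acid supply partly through these enzymes' substrates. When an amino acid runs short, uncharged tRNA activates the kinase Gcn2 (Eif2ak4), which leads to translation of the transcription factor Atf4, and Atf4 raises amino acid transporters, synthesis enzymes and many cytosolic synthetases. The mitochondrial synthetases are encoded by separate nuclear genes for the most part and serve the translation of the respiratory chain subunits encoded by mitochondrial DNA. BAT is rich in mitochondria, and liver makes large amounts of secreted protein.

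Atf4 acts through composite sites whose core resembles TGATGNAA, so the start regions of the members were read from RefSeq (GRCm38.p6) for this motif, on both strands. Promoter windows of 300 bases (250 before and 50 after the start) were held for 12 of the 19 measured cytosolic genes and for 14 of the 16 mitochondrial genes. The motif was found in 5 of the 12 cytosolic windows (Aars, Gars, Iars, Tars and Yars) and in 0 of the 14 mitochondrial windows, against 3.97% of all 32851 windows. CCAAT, the core of the NF-Y box, was found in 7 of the 12 cytosolic and 6 of the 14 mitochondrial windows, against 37.4% of all windows. A match describes the letters only and does not show that a factor binds. Shown here are the 250 bases before the start of 3 genes that hold the motif there, and of Sars, which does not hold it and which had the highest difference in liver. Capitals mark the motif, written 5′ to 3′ on the strand of the gene, where it reads as its reverse complement. The stretch for Aars lies inside the annotated span of the gene, which begins at base 111027778 of chromosome 8, since the promoter table uses another start, and the other 3 end at the annotated start. The stretches are chr8:111033592-111033841 (plus strand) for Aars, chr15:11399659-11399908 (minus strand) for Tars, chr6:55037751-55038000 (plus strand) for Gars and chr3:108445260-108445509 (minus strand) for Sars.
Aars: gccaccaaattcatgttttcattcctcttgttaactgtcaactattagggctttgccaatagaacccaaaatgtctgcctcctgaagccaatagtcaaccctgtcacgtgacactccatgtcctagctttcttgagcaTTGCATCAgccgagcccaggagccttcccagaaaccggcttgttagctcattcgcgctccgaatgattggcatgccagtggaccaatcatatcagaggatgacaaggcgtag
Tars: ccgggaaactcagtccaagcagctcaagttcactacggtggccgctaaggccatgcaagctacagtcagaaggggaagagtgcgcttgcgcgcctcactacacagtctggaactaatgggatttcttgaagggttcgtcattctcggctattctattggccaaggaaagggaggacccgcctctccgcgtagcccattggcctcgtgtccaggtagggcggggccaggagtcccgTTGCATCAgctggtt
Gars: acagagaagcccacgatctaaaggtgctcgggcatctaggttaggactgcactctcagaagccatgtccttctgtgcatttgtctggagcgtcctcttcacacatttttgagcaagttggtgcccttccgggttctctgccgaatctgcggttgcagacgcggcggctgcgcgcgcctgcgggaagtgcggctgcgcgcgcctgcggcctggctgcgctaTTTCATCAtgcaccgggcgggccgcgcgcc
Sars: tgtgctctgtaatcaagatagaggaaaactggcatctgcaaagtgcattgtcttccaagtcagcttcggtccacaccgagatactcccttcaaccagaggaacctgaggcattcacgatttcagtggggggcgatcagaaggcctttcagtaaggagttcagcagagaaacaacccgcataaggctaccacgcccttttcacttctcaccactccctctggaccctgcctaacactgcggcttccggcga
The motif began 112 bases before the start in Aars, 15 in Tars and 30 in Gars. Aars held a further match after its start. The only match of Iars and the only match of Yars also lay after the start, and these are not shown.

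The values are logarithms, taken as log2, and the authors' summary drew the arrays of a tissue very close together. The median within-group SD of a member was 1.33e-05 in liver, 1.03e-05 in WAT and 1.94e-05 in BAT, and no member's groups differed by more than 0.0042. Since each probe set was drawn together by its own amount, a difference between groups on this scale is not a fold change. Differences between VAAM and water are therefore given in units of the within-group SD of the same probe set, with each mouse's value as its distance from the mean of the water mice. The labels do not say more than that each array is 1 mouse of a group. The exact permutation p values rest on the spread between these mice. The limma p values also draw each probe set's spread towards a value shared by all probe sets. Member SDs in WAT ran from 5.67e-07 to 0.0182, so the limma p and the exact permutation p of a probe set can differ widely. The limma counts below, including those with no member called, depend on this sharing. By the mean of each list, the markers of a labelled tissue fitted its label. The 4 liver genes had a mean level of 14.71 in liver, and 3 adipocyte genes 13.32 in WAT and 11.92 in BAT. The 5 brown adipocyte genes averaged 11.38 in BAT, 6.63 in WAT and 7.15 in liver. Single markers did not all follow their list. In water mice the brown adipocyte gene Elovl3 was at 9.53 in liver and 8.52 in BAT. Dio2, another of that list, was slightly higher in liver than in BAT by its representative probe set. The liver gene Cyp2e1 was at 14.44 in liver and 13.78 in WAT. Skeletal muscle markers averaged 8.92 in BAT, against 6.92 in WAT. In whole tissue, fewer cells of a type and less RNA per cell cannot be told apart.

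In the liver, 14 of 19 cytosolic synthetases had a higher mean in the VAAM mice, Sars most of all, and Fars2 and Wars2 had the lowest values, but no member passed the test. Of 72 probe sets, 0 were called by limma at an adjusted p of 0.05, as were 0% of all probe sets tested. At an unadjusted limma p under 0.05, 7 of the 72 were counted, 2 higher (4.17% of all probe sets) and 5 lower (4.92%), where the background in both directions was 9.09%, so the share of the family was near that of all probe sets. By gene, 14 of 19 cytosolic members were higher (median difference 0.29 SD) and 9 of 16 mitochondrial members (median 0.17 SD), where 47.6% of all genes were higher (median -0.04 SD). Under quantile normalization 20 of the 72 probe sets were higher in place of 40, and 25.8% of all probe sets in place of 46.7%.

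Sars, the cytosolic seryl-tRNA synthetase, had the highest difference in liver. Its values ran from -2.11 to 1.43 SD in the water mice (median 0.74) and from 0.74 to 2.18 SD in the VAAM mice (median 1.78). The VAAM mice were held in a narrow high range, while the water mice spread from well below it to within it, and the groups overlapped. The difference was 1.67 ± 0.634 SD (SE, n = 7 and 7; two-sided exact permutation p = 0.0035, limma adjusted p = 0.404). The second Sars probe set moved with it, at 1.72 ± 0.639 SD (exact permutation p = 0.00699, n = 7 and 7). Under quantile normalization the value of the first was -0.06 SD.

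Aars and Hars, the alanyl- and cytosolic histidyl-tRNA synthetases, followed. Aars ran from -0.79 to 2.69 SD in water mice (median -0.43) and from 0.12 to 2.34 SD in VAAM mice (median 0.89). Each of the 7 VAAM mice exceeded the water median, as they did for 4.86% of all genes in liver, and 1 water mouse, number 3, lay above all of them. The difference was 1.10 ± 0.58 SD (exact permutation p = 0.0618, n = 7 and 7), and 2.72 SD without that mouse. Hars ran from -1.62 to 1.81 SD in water mice (median 0.03) and from 0.23 to 1.86 SD in VAAM mice (median 0.96). The VAAM mice lay in the upper part of the water range or just above it, with a difference of 1.03 ± 0.574 SD (exact permutation p = 0.081, n = 7 and 7), which became -0.29 SD under quantile normalization.

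The lowest liver members were mitochondrial. Fars2, the mitochondrial phenylalanyl-tRNA synthetase, ran from -1.51 to 2.61 SD in water mice (median 0.05) and from -2.50 to -1.03 SD in VAAM mice (median -1.67). No VAAM mouse reached the water median, and the groups still overlapped at the low end. The difference was -1.65 ± 0.632 SD (exact permutation p = 0.00291, n = 7 and 7; limma adjusted p = 0.413), and the second Fars2 probe set gave -0.63 SD. Wars2, the mitochondrial tryptophanyl enzyme, ran from -1.90 to 1.63 SD in water mice (median 0.16) and from -3.04 to -0.63 SD in VAAM mice (median -1.53). Here too every VAAM mouse lay below the water median, with a difference of -1.59 ± 0.625 SD (exact permutation p = 0.014, n = 7 and 7). The other Wars2 probe set went the opposite way, at 0.52 SD.

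Glycine, proline and tryptophan are the amino acids for which the study describes VAAM as rich, and their synthetases were not higher as a group. Gars, the glycyl enzyme, ran from -1.54 to 1.90 SD in water mice (median -0.32) and from -1.89 to 0.15 SD in VAAM mice (median -0.70), and the difference was -0.99 ± 0.571 SD (exact permutation p = 0.0921, n = 7 and 7). Eprs, which charges both glutamate and proline, differed by -0.58 SD by its representative probe set, while its other 3 lay between 0.39 and 0.51 SD. Wars, the cytosolic tryptophanyl enzyme, differed by 0.29 SD, with its other probe sets between -1.05 and -0.03 SD. In no tissue were the groups of any member gene free of overlap (0 of 35), as they were for 0.137% of all genes in liver, 0.0605% in WAT and 0.0385% in BAT. In the liver 9 of the 23 genes with several probe sets had probe sets on both sides of 0.

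3 further liver probe sets had an unadjusted limma p under 0.05 without being their gene's representative. All 3 were lower: Farsb at -1.61 SD, Lars2 at -1.53 SD and Farsa at -1.31 SD. A single fit over all 42 arrays, which shares 1 estimate of the spread between tissues, called both Sars probe sets higher and that Farsa probe set lower, where it called 1.53% of all probe sets. In WAT and BAT that fit called 0 members, against 0.286% and 0.699% of all probe sets. Rank products, which weigh large deposited differences most, called Aars and Tars higher (2.69% of all probe sets) and both Fars2 probe sets lower (1.43%), where they called 4.13% of all probe sets in both directions. With every probe set scaled to unit SD, rank products called 0 members in each tissue, against 0.862% of all probe sets in liver, 0.169% in WAT and 0.335% in BAT.

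**Figure D1:**
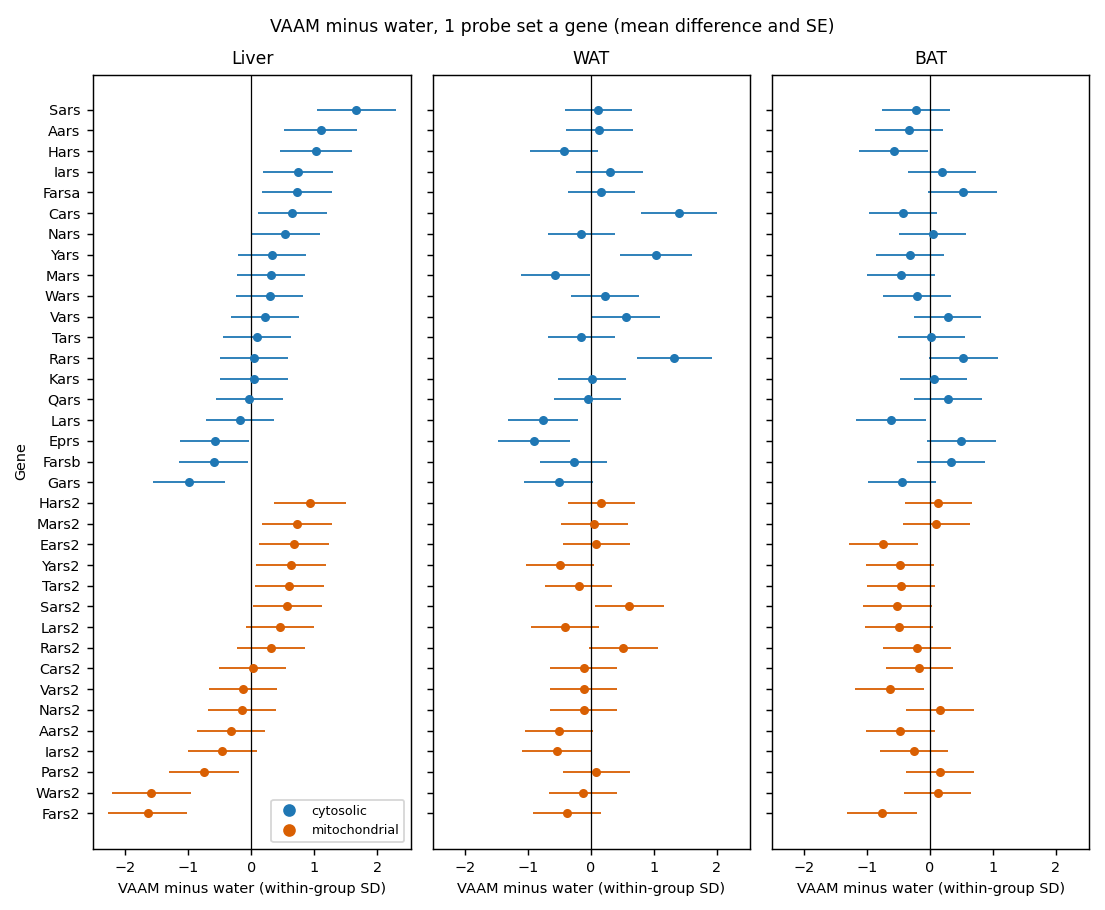
The difference between VAAM and water mice (horizontal axis, in within-group SD) for the 35 genes, 1 probe set a gene, in liver, WAT and BAT; points are mean differences, bars their SE (7 against 7 mice), blue cytosolic and orange mitochondrial genes, in the liver's order. Sars stands highest at 1.67 SD and Fars2 lowest at -1.65 SD in liver, and the BAT values lie between -0.77 and 0.53 SD.

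Of the control probe sets for RNA integrity, 1 of 6 comparisons had an unadjusted p under 0.05, in liver. The 3′ minus 5′ signal of the Gapdh control probe sets was 1.41 SD higher in the VAAM livers (exact permutation p = 0.0262, adjusted over the 6 comparisons 0.157, n = 7 and 7), and that of Actb 0.61 SD higher (exact permutation p = 0.272, n = 7 and 7). In WAT the values were 0.42 and 0.30 SD, and in BAT 0.22 and -0.01 SD. The 5 macrophage markers were all higher in the VAAM livers, by 0.73 SD on average, with 0 at an unadjusted limma p under 0.05. Their mean value ran from -1.31 to 1.10 SD in water and from -0.41 to 2.76 SD in VAAM livers. The part of these controls and markers in the liver differences was not tested.

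In WAT 0 of 72 members were called, as were 0% of all probe sets. At an unadjusted limma p under 0.05, 3 were counted, 1 higher (1.65% of all probe sets) and 2 lower (2.1%), against 3.76% of all probe sets in both directions. By gene, 10 of 19 cytosolic members (median 0.02 SD) and 6 of 16 mitochondrial members (median -0.11 SD) were higher, against 50.3% of all genes. Quantile normalization left 3 of 72 member probe sets higher in place of 38, and 4.05% of all probe sets in place of 49.4%.

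2 WAT arrays stood apart. In mouse 1 of the water group and in mouse 1 of the VAAM group each of the 6 epididymis markers had its highest level of the group. Lcn8 was at 13.39 and 13.21 in them, against group medians of 8.44 and 8.74. The deposited Lcn5 values of the VAAM group were not read as a marker level. They reached 18.94, the 1 value in the table above 16 on the log2 scale, which is the limit of a 16-bit scanner, and no other probe set exceeded 15.20. The Lcn5 groups differed by 5.44 in WAT, against at most 2.03 for any other probe set, while the other 5 markers had similar means in both groups. How these Lcn5 values arose was not tested. Without these 2 arrays, 0 members were called in WAT. There 1 member probe set, lower, had an unadjusted limma p under 0.05, against 4.05% of all probe sets. By gene, 8 of 19 cytosolic and 9 of 16 mitochondrial members were then higher. Cars was at 1.30 SD, Rars at 1.06 SD, Yars at 1.11 SD and Eprs at -0.80 SD without them, and Wars at -0.13 SD and Sars at -0.20 SD. The part of these 2 arrays' epididymis markers in the WAT values was not tested.

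The members with the highest values in WAT were Cars, Rars and Yars, the cytosolic cysteinyl, arginyl and tyrosyl enzymes. Cars ran from -1.66 to 1.0 SD in water mice (median 0.33) and from -0.26 to 3.24 SD in VAAM mice (median 1.33), a difference of 1.40 ± 0.606 SD (exact permutation p = 0.0198, n = 7 and 7). The groups overlapped, the other Cars probe set gave -0.50 SD, and the limma p was 0.305 unadjusted. Rars ran from -0.66 to 1.22 SD in water mice (median -0.29) and from -0.45 to 3.27 SD in VAAM mice (median 1.21), a difference of 1.33 ± 0.599 SD (exact permutation p = 0.0321, n = 7 and 7), and in both genes 6 of 7 VAAM mice lay above the water median. Yars differed by 1.04 ± 0.575 SD. These 3 values were -0.45, -0.27 and -0.39 SD under quantile normalization.

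Eprs was the lowest member in WAT. Its representative probe set ran from -0.92 to 0.71 SD in water mice (median 0.30) and from -2.20 to 1.18 SD in VAAM mice (median -0.72). Of the 7 VAAM mice most lay low, but 1 lay above every water mouse, and the difference was -0.90 ± 0.565 SD (exact permutation p = 0.121, n = 7 and 7). Of its other probe sets, those with unadjusted limma p under 0.05 gave -1.39 and -1.23 SD, and the remaining one gave 0.68 SD. Lars and Mars, the leucyl and methionyl enzymes, gave -0.76 and -0.56 SD, Gars -0.51 SD and Wars 0.23 SD. Wars rested on VAAM mouse 1, at 2.91 SD, and was -0.37 SD without it. A Wars2 probe set other than its representative gave 1.24 SD, the only member probe set higher in WAT at an unadjusted limma p under 0.05. Rank products called 1 Wars probe set lower, whose mean difference was 0.13 SD, and 0 members higher in WAT, where they called 1.47% of all probe sets lower, 2.01% higher and 3.49% in all.

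In BAT the differences by representative probe set ran from -0.77 to 0.53 SD, and 11 of 16 mitochondrial members had a lower mean. Other probe sets ran from -1.43 SD for Sars to 1.03 SD for Wars2. Again 0 of 72 were called, as were 0% of all probe sets. At an unadjusted limma p under 0.05, 2 of 72 were counted, 0 higher (2.16% of all probe sets) and 2 lower (2.93%), against 5.1% in both directions. By gene, 10 of 19 cytosolic members (median 0.02 SD) and 5 of 16 mitochondrial members (median -0.35 SD) were higher, against 51.8% of all genes (median 0.03 SD). Quantile normalization left 2 of 72 member probe sets higher in place of 33, and 11.4% of all probe sets in place of 48.6%.

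Fars2 was lowest in BAT. Its values ran from -1.02 to 1.43 SD in water mice (median 0.08) and from -3.27 to 0.25 SD in VAAM mice (median -0.55), a difference of -0.77 ± 0.557 SD (exact permutation p = 0.186, n = 7 and 7). The groups overlapped apart from VAAM mouse 3, the lowest. Ears2 and Vars2, the mitochondrial glutamyl and valyl enzymes, gave -0.74 and -0.64 SD, and another Ears2 probe set gave -1.31 SD at an unadjusted limma p of 0.0329. The highest members were Rars at 0.53 SD, Farsa at 0.52 SD and Eprs at 0.50 SD, each with an SE above 0.5 SD. Gars gave -0.44 SD and Wars -0.21 SD. The 3 adipocyte markers differed by 0.78 SD on average, with 2 higher in the VAAM mice and 1 at an unadjusted limma p under 0.05. The mean value of these markers ran from -0.76 to 0.87 SD in water and from 0.37 to 1.34 SD in VAAM mice. Their part in the BAT differences was not tested. Rank products called the representative Wars probe set lower and 0 members higher in BAT, where they called 2.29% of all probe sets lower, 2.19% higher and 4.48% in all. Leaving out water mouse 3, the highest, gave Wars 0.23 SD.

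A Sars probe set was the only member called in a test of the VAAM difference between tissues. Its representative probe set was 1.67 SD higher in VAAM livers, 0.12 SD in WAT and -0.22 SD in BAT, and its second probe set 1.72, 0.46 and -1.43 SD. In BAT that second probe set ran from -1.05 to 1.5 SD in water mice (median -0.35) and from -2.70 to -0.18 SD in VAAM mice (median -1.5), with an unadjusted limma p of 0.0188. For the second probe set, the liver difference minus the BAT difference was 3.15 SD (exact permutation p = 0.00117, n = 7 in each of 4 groups; limma adjusted p = 0.0321). For the representative probe set it was 1.89 SD (exact permutation p = 0.0117, n = 7 in each of 4 groups; limma adjusted p = 0.387). The limma test treats the liver and BAT arrays as independent, although they come from the same mice. The exact permutation relabels liver and BAT arrays of the same number together, as if from 1 mouse, which the labels do not state. Arrays of the same number correlated between liver and BAT in their deviations in 14 of 14 cases (r from 0.0378 to 0.219), and with the number as a block 1 member was called. This test called 1 of 72 members, and 0.153% of all probe sets, between liver and BAT. It called 0 members between liver and WAT, where the background was 0.249%, and 0 between BAT and WAT, where it was 0.02%. At an unadjusted limma p under 0.05, 7 members were counted in liver minus BAT (8.37% of all probe sets). The same threshold counted 7 in liver minus WAT (10.1%) and 3 in BAT minus WAT (5.18%). The values were first scaled to unit SD, which treats that SD as known and makes the test too ready to call, and 0 members were called on the deposited values. The call was also lost without any 1 of 12 arrays (liver water mice 4, 5 and 7, liver VAAM mice 3, 5 and 6, BAT water mice 2, 3 and 5, and BAT VAAM mice 1, 3 and 7), where 0 members were called.

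**Figure D2:**
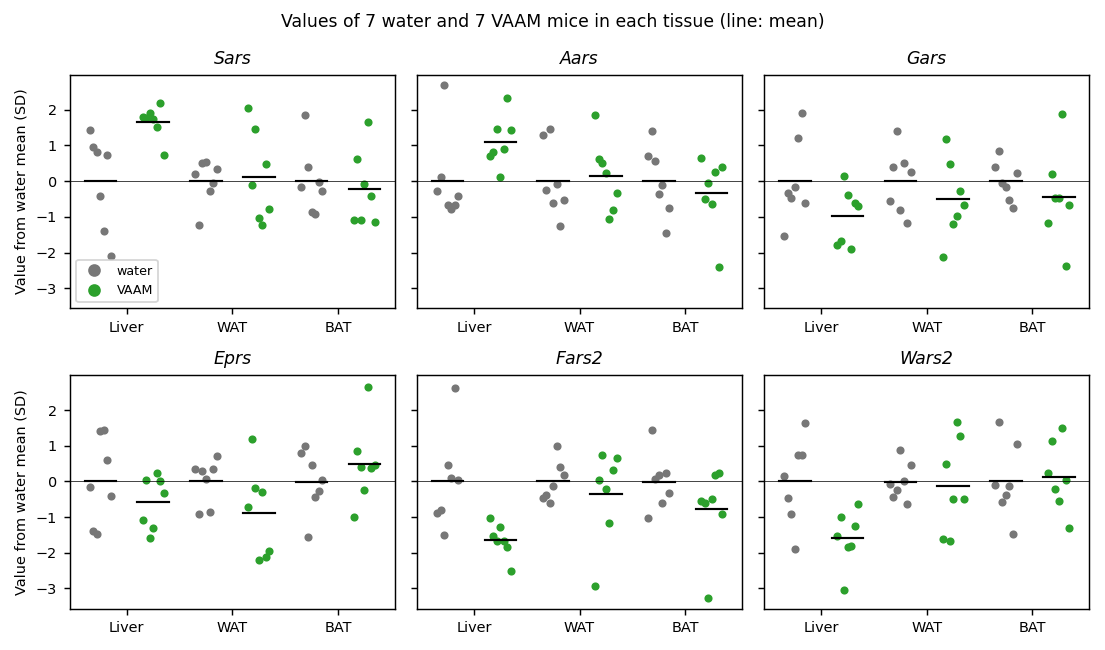
Values of single mice (vertical axis, distance from the mean of the water mice of that tissue in within-group SD) for 6 synthetases in liver, WAT and BAT; grey water mice, green VAAM mice, 7 of each, with the mean as a line. Sars in liver is tight and high in the VAAM mice (0.74 to 2.18 SD), and Fars2 and Wars2 in liver lie below the water median in every VAAM mouse.

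The genes around the family were counted in the same way. Of 15 accessory genes measured (mostly partners of the multi-synthetase complex, editing and amidating enzymes, tRNA export and elongation factors), 4 were higher in VAAM livers (47.6% of all genes), 9 in WAT (50.3%) and 6 in BAT (51.8%), and 0 were called by limma in any tissue. Of their 29 probe sets, 2 in liver (9.09% of all probe sets), 0 in WAT (3.76%) and 3 in BAT (5.1%) had an unadjusted limma p under 0.05. Liver values ran from -0.82 SD for Tsfm, a mitochondrial elongation factor, to 0.60 SD for Mtfmt, which formylates the initiator tRNA of mitochondria. In WAT they ran from -0.45 SD for Tars3, a threonyl-tRNA synthetase outside the members, to 1.03 SD for Dtd1, a D-aminoacyl-tRNA deacylase. In BAT they ran from -1.55 ± 0.621 SD for Qrsl1, a subunit of the mitochondrial glutaminyl-tRNA amidotransferase (exact permutation p = 0.0175, n = 7 and 7), to 0.86 SD for Eef1a1, which delivers charged tRNA to the ribosome.

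Of 24 genes of the amino acid response, 13 were higher in VAAM livers (47.6% of all genes), 16 in WAT (50.3%) and 19 in BAT (51.8%), and 0 were called by limma. Of their 57 probe sets, 4 in liver (9.09% of all probe sets), 5 in WAT (3.76%) and 0 in BAT (5.1%) had an unadjusted limma p under 0.05. Atf4 was the highest of them in liver: its representative probe set ran from -0.72 to 0.99 SD in water mice (median -0.25) and from -0.23 to 3.21 SD in VAAM mice (median 0.94), a difference of 1.31 ± 0.598 SD (exact permutation p = 0.0303, n = 7 and 7). Another Atf4 probe set went the opposite way in liver, at -1.70 ± 0.637 SD (exact permutation p = 0.0111, n = 7 and 7), so the array gave Atf4 no single direction there. Atf4 was 0.93 SD in WAT and 0.52 SD in BAT by its representative. The lowest in liver was Phgdh, the first enzyme of serine synthesis, at -1.55 ± 0.621 SD (exact permutation p = 0.0152, n = 7 and 7). By representative probe sets, the list in WAT ran from -1.72 SD for the lipoprotein receptor Vldlr to 1.23 SD for the transcription factor Atf3. In BAT it ran from -0.91 SD for Atf5 to 1.0 SD for Ddit4, an inhibitor of mTORC1. Another Phgdh probe set had a mean deposited level in WAT of 8.51 in water and 9.45 in VAAM mice. How that difference arose was not tested. Eif2ak4 itself differed by 0.39 SD in liver and -0.07 SD in BAT.

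The liver values of the 5 cytosolic genes with the TGATGNAA motif were 1.10 SD for Aars, 0.74 SD for Iars, 0.33 SD for Yars, 0.09 SD for Tars and -0.99 SD for Gars. Sars, which holds no match in its window, gave 1.67 SD. No member was called by limma in liver, so the direction of single genes is uncertain, and a part of the motif was not tested.

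In the water mice, most mitochondrial synthetases stood higher in BAT than in WAT. Most cytosolic ones stood lower on the deposited values, but not under quantile normalization. Levels are log2 values as deposited, means of 7 water mice, and differences between tissues are given relative to the median difference of all probe sets, which was -0.115 for liver minus WAT, -0.041 for liver minus BAT and -0.093 for BAT minus WAT. From the array medians each tissue was apparently summarized in a run of its own, so a difference of level between tissues and a difference between runs cannot be told apart, and the test between them called 72 of 72 members and 99.8% of all probe sets in liver minus WAT, 99.7% in liver minus BAT and 99.8% in BAT minus WAT. These calls therefore say nothing about the members, and the levels are a description.

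In BAT minus WAT, 14 of 16 mitochondrial genes were higher, with a median of 0.41, while 6 of 19 cytosolic genes were higher, with a median of -0.14. Among all genes 48.1% were higher. A difference above 0.5 was found in 6 mitochondrial and 0 cytosolic genes, against 8.98% of all genes, and one below -0.5 in 0 mitochondrial and 5 cytosolic genes, against 17.2% of all genes. By probe set, 26 of 32 mitochondrial and 17 of 40 cytosolic were higher. Under quantile normalization the counts were 15 of 16 and 11 of 19, and with the mean of each gene's probe sets 13 of 16 and 7 of 19. The 6 skeletal muscle markers averaged 8.92 in BAT and 6.92 in WAT, and the 6 epididymis markers 6.42 and 8.38. That last mean was raised by WAT water mouse 1, where Lcn8 was at 13.39 against a group median of 8.44. The part of these muscle and epididymis markers in the differences was not tested.

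Yars2, the mitochondrial tyrosyl enzyme, had a level of 8.58 in BAT, 8.07 in liver and 7.59 in WAT, and stood 1.08 higher in BAT than in WAT. Its second probe set gave 0.91. Lars2, the mitochondrial leucyl enzyme, had levels of 9.56 in BAT, 8.64 in WAT and 8.33 in liver, a BAT minus WAT difference of 1.01, and its other probe sets gave 0.40 and 0.25. Fars2 had 9.56 in BAT, 9.28 in liver and 8.83 in WAT, a difference of 0.82, and its second probe set gave 0.20. For each of these 3 genes BAT was the highest tissue by the representative probe set. The exceptions among the mitochondrial genes were Ears2 at -0.33 and Sars2 at -0.07, and a second Iars2 probe set gave -0.95 where the representative gave 0.40.

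On the cytosolic side, Lars had a level of 10.02 in WAT, 9.07 in BAT and 8.99 in liver, a BAT minus WAT difference of -0.86. Rars had 9.65 in WAT, 9.32 in liver and 8.73 in BAT, a difference of -0.83. Qars, the glutaminyl enzyme, gave -0.68 by its representative probe set, but its other 3 gave 0.01, 0.12 and 0.48. Eprs at -0.66 and Nars at -0.65 were the other cytosolic genes below -0.5, and a second Nars probe set gave 0.10. The other Eprs probe sets gave -1.05, -0.04 and 0.07. Mars, at 0.46, was the highest cytosolic gene in this pair.

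**Figure D3:**
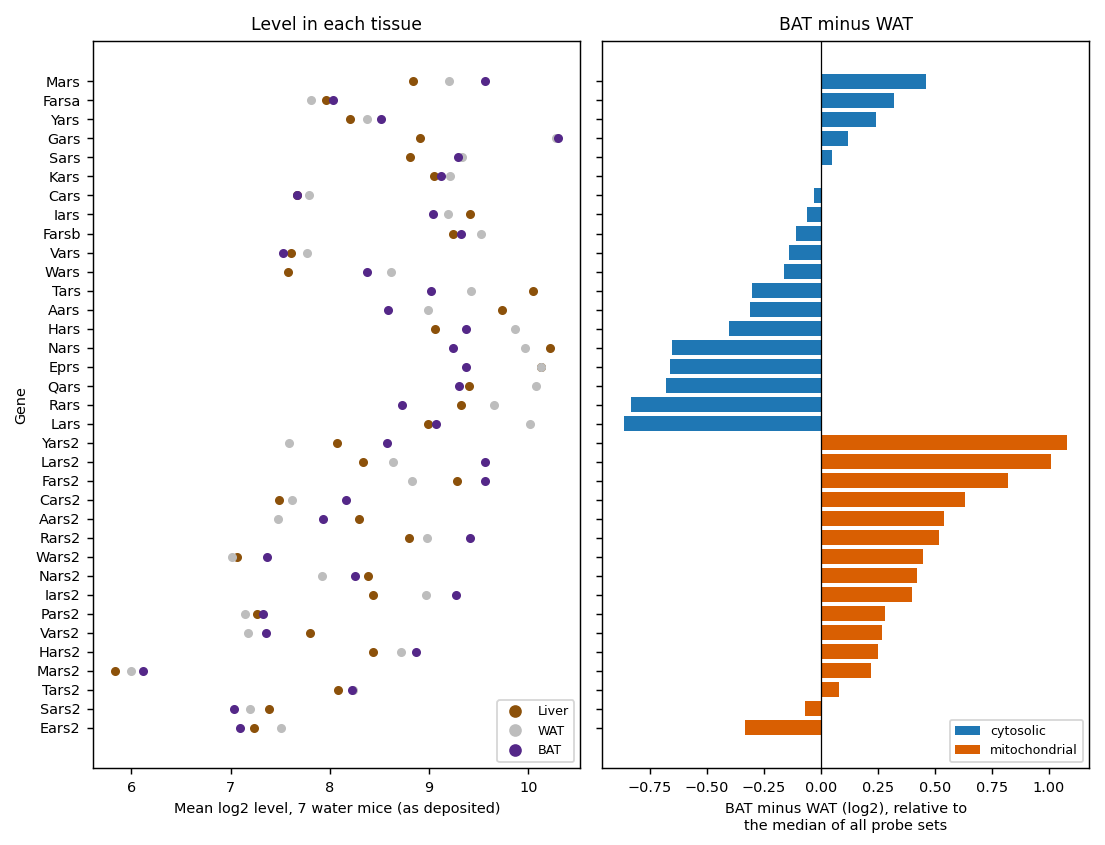
Left, mean log2 level of each synthetase in 7 water mice of liver, WAT and BAT as deposited, and right, BAT minus WAT on the log2 scale relative to the median of all probe sets; blue bars cytosolic and orange bars mitochondrial genes. Bars of 14 of 16 mitochondrial genes point to BAT, from 0.08 for Tars2 to 1.08 for Yars2. Levels of different genes come from different probe sets and are not to be ranked against each other.

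Liver was compared with each fat in the same way. In liver minus WAT, 6 of 19 cytosolic genes (median -0.05) and 8 of 16 mitochondrial genes (median 0.07) were higher, against 48.4% of all genes. With the mean of each gene's probe sets these counts were 5 of 19 and 12 of 16, and under quantile normalization 10 of 19 and 14 of 16. The counts of this pair thus depended on the processing. A difference above 0.5 was found in 2 cytosolic and 5 mitochondrial genes, against 13.2% of all genes, and one below -0.5 in 5 and 0, against 22.8%. In liver minus BAT, 9 of 19 (median -0.03) and 5 of 16 (median -0.24) were higher, against 49.5% of all genes. Here 5 cytosolic and 0 mitochondrial genes lay above 0.5 (14% of all genes), and 3 and 4 below -0.5 (16.5%). Aars, at levels of 9.73 in liver, 8.99 in WAT and 8.59 in BAT, stood 0.86 above WAT and 1.19 above BAT. Tars, the threonyl enzyme, at 10.05 in liver, 9.42 in WAT and 9.02 in BAT, stood 0.75 and 1.06 above them. Both were highest in liver, and Aars had the higher value against each fat. Nars stood 1.03 above BAT by its representative probe set and 0.07 by its second, and the mitochondrial Aars2 0.92 above WAT.

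Gars was the member lowest in liver. Its level was 8.91 in liver, 10.28 in WAT and 10.30 in BAT, which placed liver 1.25 below WAT and 1.34 below BAT, while the fats differed by 0.12. Wars was 0.93 lower in liver than in WAT by its representative probe set, and its other probe sets ran from -0.83 to 0.46. Lars was 0.92 lower in liver than in WAT. Lars2 was 1.18 and Iars2 0.80 lower in liver than in BAT by their representative probe sets. The other Lars2 probe sets gave -0.20 and 0.01, and the second Iars2 probe set gave 0.70.

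The members' deviations between mice of a group were also compared. As a description over 14 mice in a tissue, with each mouse taken as its deviation from its group's mean, the mean Pearson r between cytosolic members (171 pairs) was 0.17 in liver, 0.21 in WAT and 0.33 in BAT. Between mitochondrial members (120 pairs) it was 0.17, 0.09 and 0.35. Pairs of a cytosolic and a mitochondrial member gave 0.08, -0.05 and 0.22, and pairs of all genes 0.00897, 0.0102 and 0.016. All pairs share the same arrays, and single cytosolic pairs ran from -0.66 to 0.81 in liver.

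**Figure D4:**
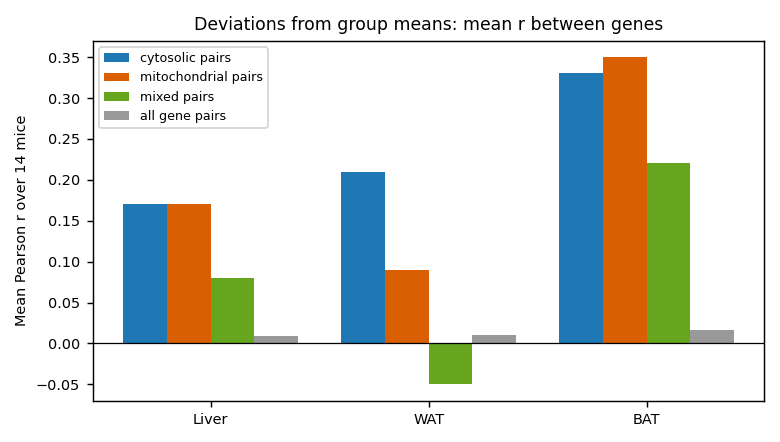
Mean Pearson r over 14 mice (vertical axis) between pairs of genes in each tissue, for cytosolic, mitochondrial and mixed pairs of synthetases and for all genes, from deviations from group means. BAT has the highest bars within both classes (0.33 and 0.35), and the bars of all genes lie near 0.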

How the data were processed

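RNA of liver, WAT and BAT was hybridised to Affymetrix GeneChip arrays of the mouse genome. The authors used DFW, a distribution-free weighted summary, and deposited log2 values, 1 per probe set and array. No source gives the base, which was taken as 2. The submitters' processing notes name R 2.7.2. Array medians ran from 6.72943 to 6.72967 in liver, 6.90756 to 6.91328 in WAT and 6.77386 to 6.77539 in BAT. The number of arrays limits the precision.

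Of 45101 probe sets, 64 controls were left out and 45037 tested with no filter. Of these, 34945 named 1 gene in the platform annotation. A gene was represented by its probe set with the highest mean over 42 arrays. VAAM was tested against water in each tissue with limma 3.58.1 (R 4.3.3), with p adjusted over all probe sets by Benjamini-Hochberg, and for single values with two-sided exact permutation over the 3432 splits of 14 mice, whose smallest p is 0.000583. Differences of VAAM effects between tissues were fitted with limma on values scaled to unit SD. Alternatives were a replicate block, quantile normalization, a filter on dim probe sets, a trended robust prior, 1 fit over 42 arrays, rank products over 49 pairs of arrays with 50 permutations (Python 3.11.15), and leaving out each array.

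The members and lists were chosen with earlier results of these data known. The genes named were the 3 highest and 3 lowest members in each tissue, members with an unadjusted limma p under 0.05, and Gars, Eprs and Wars. For tissue pairs the rule ordered members by the difference in SD, which the compression makes uninterpretable. They were ordered by the level difference instead, a choice made after the values were seen. Sars in WAT and BAT, Atf4 and other probe sets were added likewise. The CAAM group was not analysed here.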

Additional observations from a re-analysis of the deposited data

Results flagged for a closer look

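Among 52 groups of 7 mice examined for a single mouse far from the rest, 6 held one, and chance gives about 1 in 20. In liver, water mouse 3 stood high for Aars at 2.69 SD from the water mean. In WAT, VAAM mouse 1 stood high for Wars at 2.91 SD. In BAT, VAAM mouse 3 stood low for Fars2 at -3.27 SD, water mouse 1 low for Rars at -1.08 SD, water mouse 3 high for Wars at 2.29 SD and VAAM mouse 5 high for Wars at 1.88 SD. Of these 6 mice, 3 were found through Wars.

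The response of Sars to VAAM differed between liver and BAT by 3.15 SD for 1 of its 2 probe sets (limma adjusted p = 0.0321, exact permutation p = 0.00117 over 7 mice in each of 4 groups). It was the only member past the threshold in a test of the difference between tissues. The representative Sars probe set gave 1.89 SD (limma adjusted p = 0.387). The limma call was not made on the deposited values and was lost without any 1 of 12 arrays. Scaling to unit SD makes that test too ready to call.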

How the results depend on the processing

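The count of members called between VAAM and water was 0 in each tissue under the replicate block, quantile normalization, the filter on dim probe sets, the trended prior, rank products at unit SD and without each array in turn (0 to 0). It was 3 in liver under 1 fit over 42 arrays, and 4, 1 and 1 in liver, WAT and BAT under rank products. Same-numbered water and VAAM arrays did not deviate together in every pair, so the replicate number was not taken as a pairing, and under the replicate block 0 members were called. The Sars difference between liver and BAT left 1 member called with the replicate block, 0 on deposited values, and 0 to 2 without single arrays.

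Quantile normalization, which lowered most probe sets of the VAAM arrays, turned the sign in liver of Hars (-0.29), Sars (-0.06), Eprs (0.68), Wars (-0.90), Tsfm (0.02) and Mtfmt (-0.57). In WAT it turned Yars (-0.39), Rars (-0.27), Cars (-0.45), Sars (-0.29), Dtd1 (-0.31), Atf3 (-0.49) and Atf4 (-0.23), and in BAT Eprs (-0.44), Farsa (-0.20), Rars (-0.22), Eef1a1 (-0.62) and Atf4 (-0.05), all in SD. The mean of a gene's probe sets turned Wars2 (0.16), Eprs (0.44) and Wars (-0.11) in liver, Cars (-0.42) in WAT and Eprs (-0.17) in BAT. The cause was not tested. Leaving out both WAT arrays of number 1, chosen after seeing the data, gave Wars -0.13 and Sars -0.20 SD in WAT. Without single arrays, Wars ran from -0.37 to 0.40 SD and Sars from -0.25 to 0.36 SD in WAT, and Wars from -0.71 to 0.23 SD and Sars from -0.64 to 0.10 SD in BAT.

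The mitochondrial minus cytosolic median level kept its sign in each tissue pair. It was 0.10 in liver minus WAT, -0.25 in liver minus BAT and 0.52 in BAT minus WAT under quantile normalization, and 0.12, -0.11 and 0.41 with the mean of a gene's probe sets, against 0.12, -0.21 and 0.55 with the representative probe sets.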
